A study of Homo sapiens with 14 samples.

Results

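The genes described here are 40 interferon-stimulated genes, taken by symbol from the 63677 genes listed in each of 2 RNA expression tables. Of these, 26 reached a mean of at least 1 FPKM in the table on EZH2 and 30 in the table on LAT1, and 25 did so in both. FPKM is a count of reads or fragments scaled by gene length and library depth. The cells were KYSE510, a line grown from an esophageal squamous cell carcinoma, transfected with small interfering RNA (siRNA) in RNAiMAX lipid and harvested after 48 h. In the EZH2 series, the groups were siEZH2-1, siEZH2-2 and the control siRNA siNC, with 2 libraries each. In the LAT1 series, they were siLAT1-2, siLAT1-3 and a separate siNC, again with 2 libraries each. EZH2 methylates histone H3 as part of the Polycomb machinery. LAT1 is a plasma-membrane transporter of amino acids such as leucine and methionine, encoded by SLC7A5. All 6 groups share 1 cell line and the transfection, no untransfected group was analysed here, and the labels name no interferon treatment. The labels do not say whether the 2 libraries of a group are separate cultures. The p-values therefore speak to the spread between those libraries alone, and that spread may be technical. In bulk RNA, fewer cells expressing a gene and less of its RNA per cell cannot be told apart.

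Type I and type III interferons are secreted by cells that sense foreign nucleic acid. Their receptors activate JAK kinases and a complex of STAT proteins with IRF9, which binds a promoter sequence called the interferon-stimulated response element. Interferon gamma acts through STAT dimers at a related sequence, the gamma-activated site, and IRF1 is a classical target of that route. The genes that respond include RNA sensors, antiviral effectors, the transcription factors of the pathway itself, and brakes such as USP18. Epithelial cells keep part of this set at a low level without added interferon.

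The promoter sequences are shown because the interferon-activated complex binds the response element. The motif was not used to choose the list. The genes were chosen as interferon-responsive, so the share of matches is no independent check of them. RefSeq windows (GRCh38.p14, from 250 bases before to 50 bases after each start site) were matched for 33 of the 40 genes, with 43 start sites. IFIT2, MX2, OAS2, OASL, IRF7, IFITM2 and USP18 were not matched. The response element, searched on both strands as GAAA, any 2 bases and GAAA again, was found in 27 of the 43 windows (62.8%), against 3.57% of 35116 windows in the whole table. The gamma-activated site, TTCNNNGAA, reads the same on both strands and was found in 10 of the 43 windows (23.3%), against 7.66% of all. Overlapping matches were kept, and the 2 searches could share bases. A match is a description of these letters, not a site shown to be bound. The stretches below belong to genes that fell in at least 1 series, each 5′ to 3′ on the strand of its gene, with the matching bases in capitals.
IFIT1, chr10:89392492-89392544, plus strand: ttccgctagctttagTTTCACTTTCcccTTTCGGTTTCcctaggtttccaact
IFIT3, chr10:89327826-89327899, plus strand: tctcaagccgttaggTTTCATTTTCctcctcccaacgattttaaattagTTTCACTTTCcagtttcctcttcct
IFIT5, chr10:89414508-89414567, plus strand: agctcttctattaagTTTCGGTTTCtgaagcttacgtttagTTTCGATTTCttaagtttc
ISG15, chr1:1013369-1013414, plus strand: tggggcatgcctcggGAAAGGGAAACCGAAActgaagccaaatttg
SAMD9, chr7:93118091-93118130, minus strand: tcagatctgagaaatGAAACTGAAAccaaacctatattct
IRF1, chr5:132490874-132490912, minus strand, gamma-activated site: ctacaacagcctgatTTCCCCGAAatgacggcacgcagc
IFIT5 held 3 matches, of which 2 are shown, and IFIT3 has 2 start sites, of which the first is shown. The 2 matches of ISG15 overlap.

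Among the 33 matched genes, 23 held the response element. Of the 11 genes that fell in the mean comparison of either series (below), 8 were matched and 6 held it, the others being DDX58 and IRF1. Of the other 20 tested genes, 19 were matched and 13 held it. These shares are counts of letters and were not tested.

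The targeted genes were low in their own knockdown libraries. EZH2 stood at 17.1 FPKM in siNC and at 40.6% and 36.4% of that with siEZH2-1 and siEZH2-2. SLC7A5 stood at 410.3 FPKM in siNC of the LAT1 series and at 20.3% and 26.0% of that with siLAT1-2 and siLAT1-3. SLC7A5 was also at 24.9% of siNC with siEZH2-1, against 78.6% with siEZH2-2. Depth was estimated from the smallest steps between values of short RNA genes, with their RefSeq lengths. It was 21060000 to 27060000 reads or fragments per library for EZH2 and 12760000 to 16700000 for LAT1. Replicate libraries correlated at r = 0.993 to 0.995 across genes. All 12 squamous epithelial markers were tested in both series, led by KRT5 at a mean of 489.7 and 467.5 FPKM, and 4 and 8 of them were called in the mean comparison. Their summed level was 1087 to 1248 FPKM with the EZH2 siRNAs against 1220 to 1310 in siNC, and 1215 to 1312 with the LAT1 siRNAs against 1411 to 1413. Their part in the results was not tested. The summed level of 15 immune markers was 1.32 to 1.81 FPKM per library in the EZH2 series (1.58 in both siNC libraries) and 1.66 to 2.05 in the LAT1 series (2.05 in both siNC libraries). CLEC4C and LILRA4 were listed at 0 in both series. Only 1 of the 15 reached the threshold for testing in the EZH2 series, where it was not called, and none did in the LAT1 series.

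IFITM3 and ADAR stood highest of the 40 genes in all 6 groups. IFITM3, which blocks virus entry at endosomal membranes, averaged 204.0 FPKM over the 6 EZH2 libraries and 165.7 FPKM over the 6 LAT1 libraries. ADAR, which edits adenosines in double-stranded RNA, followed at 48.9 and 84.1 FPKM. ISG15, a ubiquitin-like modifier, stood at 38.5 and 13.4 FPKM and SAMD9, an antiviral restriction factor, at 34.8 and 19.4 FPKM. OAS3, an oligoadenylate synthetase that activates RNase L, was at 25.6 and 24.3 FPKM. The order below ADAR differed between the series. In siNC of the LAT1 series, EIF2AK2 (24.8 FPKM), DTX3L (22.1 FPKM), IFITM1 (19.4 FPKM) and IFITM2 (16.6 FPKM) lay above ISG15 (14.9 FPKM). At least 10 FPKM was reached by 12 of the 40 genes in the EZH2 series and by 11 in the LAT1 series.

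Several classical interferon-induced genes were low in all 6 groups. ISG20, MX1, MX2, OAS2, IRF7, IRF9, IFI27, IFI44L and XAF1 stayed under 1 FPKM in both tables. MX1, an antiviral dynamin-like GTPase, averaged 0.267 and 0.238 FPKM, and IRF9, the DNA-binding partner in the STAT complex, 0.237 and 0.165 FPKM. The genes nearest the threshold from above were RSAD2 (1.18 FPKM) in the EZH2 series and OAS1 (1.55 FPKM) in the LAT1 series. The nearest from below were HERC5 (0.718 FPKM) and IFI44L (0.633 FPKM). Genes under the threshold were not tested.

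**Figure D1:**
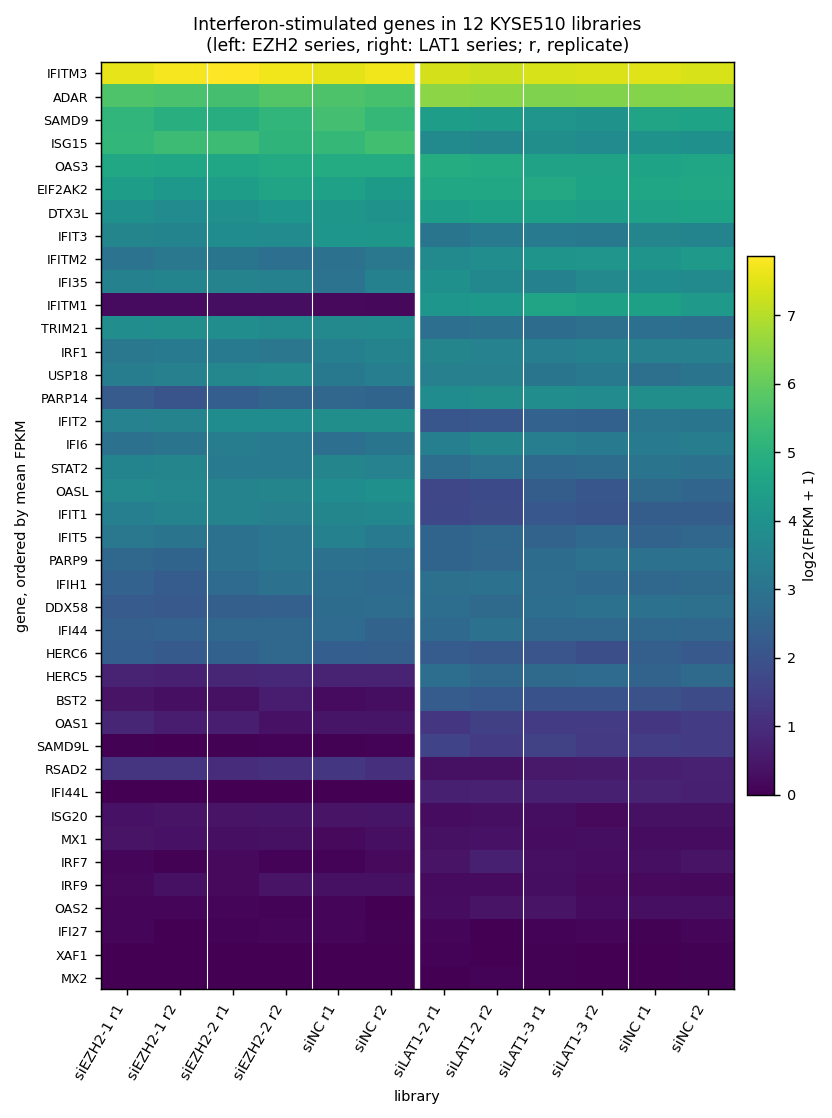
Level of the 40 interferon-stimulated genes (rows, ordered by mean FPKM) in the 12 libraries (columns), as log2(FPKM + 1) in colour. IFITM3 and ADAR are brightest in every library, 9 genes stay dark in both series, and IFITM1, BST2, SAMD9L and HERC5 are darker in the EZH2 series than in the LAT1 series.

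Some of these genes stood at different levels in the siNC groups of the 2 series. The 2 tables were made separately and share no library, so the levels are set side by side as a description, with no test. IFITM1, the plasma-membrane member of the IFITM family, was at 0.15 and 0.12 FPKM in siNC of the EZH2 series and at 21.18 and 17.53 FPKM in siNC of the LAT1 series. SAMD9L, the neighbour and paralog of SAMD9, was at 0.045 ± 0.00707 (SD, n = 2) against 1.65 ± 0.0707 FPKM. BST2, which tethers budding virions, was at 0.205 ± 0.0354 against 2.71 ± 0.269 FPKM. These genes were therefore near the floor in the EZH2 series and clearly present in the LAT1 series, a 143-fold ratio of means for IFITM1, 36.7-fold for SAMD9L and 13.2-fold for BST2. At such low levels a few reads set the value. No counting interval was put on these ratios because the gene lengths behind the deposited values are not given.

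HERC5 (7.38-fold), OAS1 (4.01-fold), PARP14 (2.77-fold) and IFITM2 (2.26-fold) were also at least 2-fold higher in siNC of the LAT1 series. IFIT1 (2.87-fold), ISG15 (2.70-fold) and OASL (2.64-fold) lay the other way. The remaining 21 of the 31 genes tested in at least 1 series were within 2-fold. For comparison, 10.3% of 12459 genes were at least 2-fold higher and 8.33% at least 2-fold lower in siNC of the LAT1 series, against 7 and 3 of the 31 here. Of the 7, IFITM1, SAMD9L, BST2, HERC5 and OAS1 reached 1 FPKM only in the LAT1 table, so their place among the 31 rests on being high there. The median ratio was 0.972 over the 31 genes and 0.908 over all genes. The IFITM genes share sequence, so how reads were divided between them is uncertain.

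**Figure D2:**
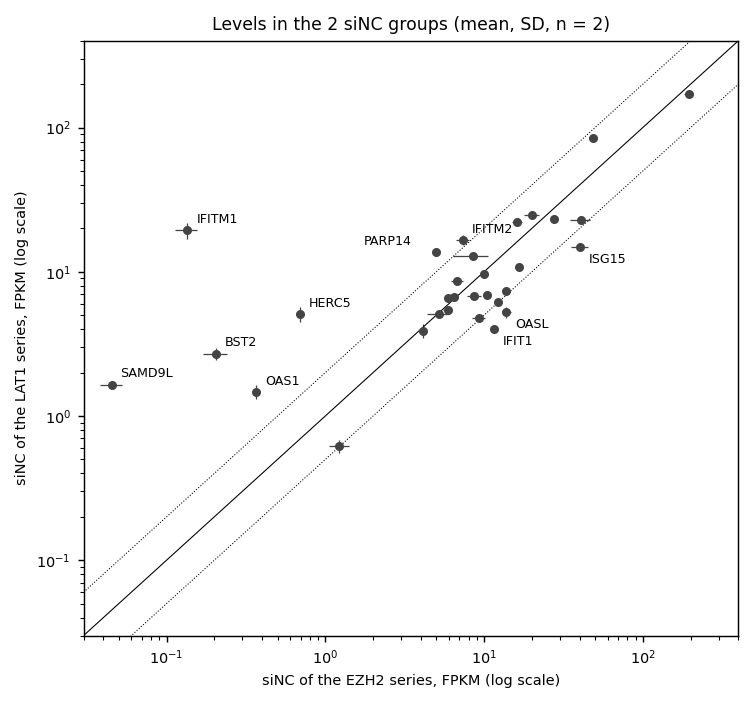
Mean FPKM of the 31 tested interferon-stimulated genes in siNC of the EZH2 series (x, log scale) and siNC of the LAT1 series (y, log scale), with SD bars from 2 libraries, a solid line at equality and dotted lines at 2-fold. The 10 labelled genes lie outside the dotted lines, with IFITM1 (143-fold) and SAMD9L (36.7-fold) farthest above.

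After EZH2 knockdown, 6 interferon-stimulated genes fell and 1 rose in the mean of both siRNAs against siNC. DDX58, IFIT3, IFIT5, OASL, IRF1 and IFIT2 fell, and USP18 rose, by limma on log2(FPKM + 1) at an adjusted p under 0.05. In the same comparison 30.0% of 11585 genes were called, 17.0% higher and 13.0% lower. The 6 of 26 genes called lower are thus 23.1%, and the 1 called higher is 3.85%. The median log2 change was -0.11 over the 26 genes and 0.03 over all genes tested. With both siRNAs pooled as 1 group, DDX58 and IFIT3 stayed called, and the adjusted p of the others ran from 0.0579 (IRF1) to 0.28 (USP18). With no filter on low genes, IRF1 (0.0728), OASL (0.0609), IFIT5 (0.124) and USP18 (0.156) were not called. Changes on this scale are understated for genes with low FPKM.

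DDX58 (now RIGI) encodes RIG-I, the cytosolic sensor of viral RNA ends. It stood at 3.78 and 3.60 FPKM with siEZH2-1, at 4.24 and 4.31 with siEZH2-2 and at 5.85 and 6.07 in siNC. All 4 knockdown libraries lay below both siNC libraries, and siEZH2-1 lay below siEZH2-2. The mean log2 change was -0.48 (SE 0.0582, adjusted p = 0.002). It was -0.57 with siEZH2-1 (adjusted p = 0.00213) and -0.40 with siEZH2-2 (adjusted p = 0.00773). These calls held without each library in turn. In the LAT1 series DDX58 was not called, with a mean log2 change of -0.09 and 5.51 to 6.66 FPKM over the 6 libraries.

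IFIT3, a scaffold of the IFIT antiviral complex, showed the same ordering. It was at 10.97 and 10.56 FPKM with siEZH2-1, 13.16 and 12.69 with siEZH2-2, and 16.41 and 16.98 in siNC. The mean log2 change was -0.47 (SE 0.0497, adjusted p = 0.00136), and IFIT3 was called lower with each siRNA, also without each library in turn. It fell further with siEZH2-1 (-0.59) than with siEZH2-2 (-0.35), a difference of 0.24 (adjusted p = 0.0352). That difference was not called without any of the 6 libraries, with adjusted p from 0.0621 (without siNC replicate 1) and 0.0627 (without siNC replicate 2) to 0.105 and 0.196 without siEZH2-1 replicates 1 and 2, and 0.125 and 0.101 without siEZH2-2 replicates 1 and 2.

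IFIT2, another member of the IFIT family of RNA-binding proteins, was at 10.26 and 10.31 FPKM with siEZH2-1, 13.06 and 13.15 with siEZH2-2, and 13.76 and 13.66 in siNC. It fell with siEZH2-1 (log2 change -0.38, adjusted p = 0.00379), and the change of -0.06 with siEZH2-2 did not pass (adjusted p = 0.447), although no siEZH2-2 library reached the siNC libraries. The siRNAs differed by 0.32 (adjusted p = 0.0107), a call lost without siEZH2-1 replicate 1 (0.0662) or 2 (0.0744) or siEZH2-2 replicate 2 (0.0602). The mean change of -0.22 (adjusted p = 0.0147) was not called without siNC replicate 1 (0.106) or siNC replicate 2 (0.0737).

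IFIT5 and IFIT1 complete the family. IFIT5, which binds RNA with a 5′ phosphate, was at 7.83 and 7.14 FPKM with siEZH2-1, 6.57 and 7.47 with siEZH2-2, and 9.92 and 8.61 in siNC. Its mean change of -0.31 (adjusted p = 0.0304) was lost without siNC replicate 1 (0.207), siEZH2-1 replicate 2 (0.081) or siEZH2-2 replicate 1 (0.0651). IFIT1, which binds viral RNA lacking cap methylation, was at 9.44, 10.42, 10.38 and 9.82 FPKM in the knockdown libraries and at 11.28 and 11.67 in siNC. The groups did not overlap, yet the mean change of -0.18 did not pass the test (adjusted p = 0.0637). In RefSeq the IFIT genes lie within the span of LIPA, which encodes a lysosomal lipase. The strand setting of the counting is not stated, so how reads in the shared span were assigned is not known. LIPA itself was at 75.0% of siNC with siEZH2-2 (log2 change -0.39, called) and at 96.0% with siEZH2-1 (-0.06, not called), and its part in the IFIT values was not tested.

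OASL, a synthetase-like protein that binds RIG-I, was at 12.01 and 11.33 FPKM with siEZH2-1, 10.47 and 11.04 with siEZH2-2, and 13.19 and 14.47 in siNC. No knockdown library reached siNC, and the mean log2 change was -0.28 (SE 0.0603, adjusted p = 0.0164). It was not called without siEZH2-1 replicate 2 (0.0526) or siNC replicate 2 (0.103). IRF1, a transcription factor that acts on many of these promoters, was at 7.87, 8.28, 8.43 and 7.74 FPKM in the knockdown libraries and at 9.55 and 10.38 in siNC. The siRNAs gave like values, -0.27 each (adjusted p = 0.0362 and 0.0382), with a mean of -0.27 (adjusted p = 0.0213). The mean was not called without siEZH2-1 replicate 1 (0.0563), siNC replicate 1 (0.0596) or siNC replicate 2 (0.124). Of the per-siRNA calls, that of siEZH2-1 was lost without siEZH2-1 replicate 1 (0.142), siEZH2-1 replicate 2 (0.114), siNC replicate 1 (0.0782) or siNC replicate 2 (0.147). That of siEZH2-2 was lost without any of the 6 libraries, with adjusted p from 0.0637 without siEZH2-1 replicate 1 to 0.167 without siNC replicate 2.

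USP18, which removes ISG15 from proteins and dampens the interferon receptor, was the exception in direction. It was at 8.74 and 9.68 FPKM with siEZH2-1, 11.47 and 12 with siEZH2-2, and 8.09 and 9.27 in siNC. The siEZH2-2 libraries lay above siNC and the siEZH2-1 libraries overlapped it. The log2 change with siEZH2-2 was 0.40 (adjusted p = 0.0166) and the mean 0.24 (adjusted p = 0.0493). The siEZH2-2 call was lost without siNC replicate 1 (0.0871), siEZH2-2 replicate 1 (0.0519) or siEZH2-2 replicate 2 (0.0672). The mean was close to the threshold and was lost without siEZH2-1 replicate 1 (0.055), siEZH2-1 replicate 2 (0.126), siEZH2-2 replicate 1 (0.0788), siEZH2-2 replicate 2 (0.0927) or siNC replicate 1 (0.31, with a change of 0.15). The mean was also not called after quantile normalization (0.0578) or with a pseudocount of 0.1 (0.0501).

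**Figure D3:**
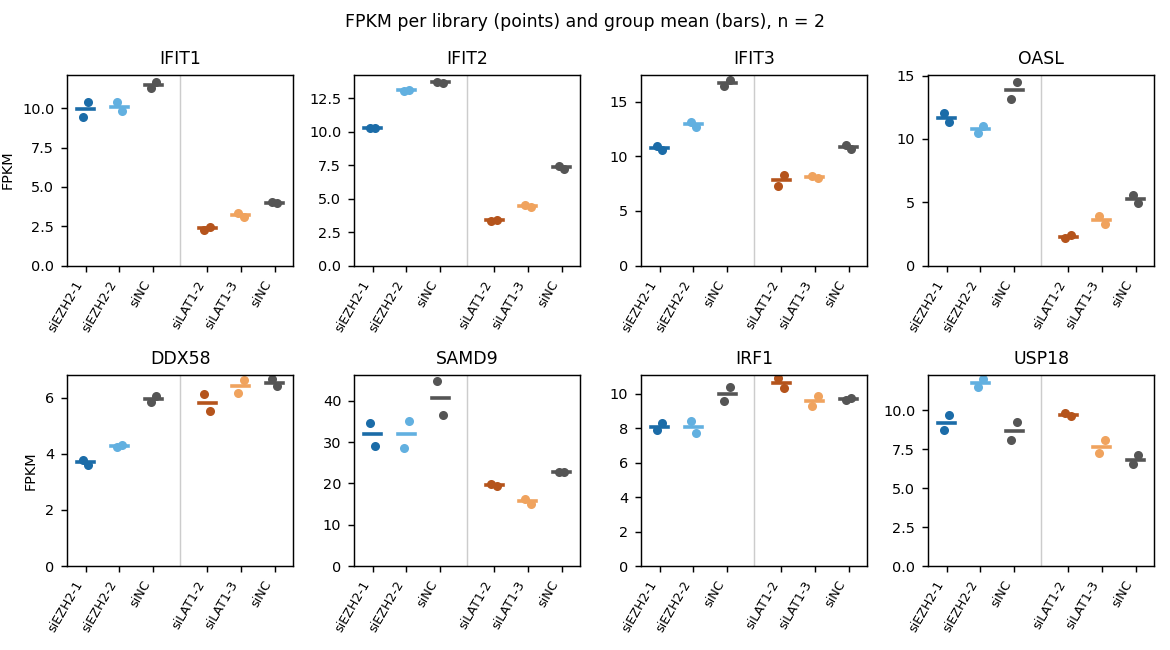
FPKM of 8 interferon-stimulated genes in each library (points) with the group mean (bars), the EZH2 series on the left of each panel and the LAT1 series on the right, each panel on its own scale from 0. IFIT1, IFIT2, IFIT3, OASL and SAMD9 are below siNC in every knockdown library of both series, DDX58 and IRF1 in those of the EZH2 series, and USP18 is above siNC with siEZH2-2 and with both siLAT1 siRNAs.

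With each EZH2 siRNA alone, 7 of the 26 genes were called lower with siEZH2-1 (11.4% of all genes) and 6 with siEZH2-2 (10.9% of all genes). In either direction 27.2% and 24.8% of all genes were called. None was called higher with siEZH2-1 by limma, where 15.9% of all genes were, and 2, IFI6 and USP18, with siEZH2-2 (13.9% of all genes). At an unadjusted p under 0.05, 13 of the 26 differed in either direction with siEZH2-1, against 41.1% of all genes. Both siRNAs called DDX58, IFIT3 and IRF1 lower, against 4.05% of all genes, and none of the 26 higher, against 8.93%. All 4 knockdown libraries lay below both siNC libraries for 9 genes (IFIT1, IFIT2, IFIT3, IFIT5, DDX58, OAS3, OASL, IRF1 and SAMD9), against 15.3% of all genes, and above them for none, against 25.1%.

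The siEZH2-1 list held a small group that siEZH2-2 did not share. IFIH1 encodes MDA5, the sensor of long double-stranded RNA, and stood at 4.52 and 3.92 FPKM with siEZH2-1, 5.69 and 6.72 with siEZH2-2, and 6.14 and 5.65 in siNC. PARP9, a macrodomain protein that pairs with the ubiquitin ligase DTX3L, was at 5.33 and 4.82, then 6.78 and 7.45, against 6.73 and 6.27. PARP14, an ADP-ribosyltransferase, was at 3.76 and 3.15, then 4.13 and 4.95, against 5.06 and 4.84. In each case the siEZH2-1 libraries were the lowest of the 6. With siEZH2-1 the log2 change was -0.40 for IFIH1 (adjusted p = 0.0286), -0.30 for PARP9 (0.0341) and -0.42 for PARP14 (0.0288).

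These 3 calls were lost without siEZH2-1 replicate 2 (adjusted p = 0.156, 0.19 and 0.156 in that order), siNC replicate 1 (0.14, 0.173 and 0.13) or siNC replicate 2 (0.0593, 0.0694 and 0.0741), and that of PARP9 also without siEZH2-1 replicate 1 (0.0605). The siRNAs differed from each other for IFIH1 and PARP9, and for PARP14 the difference of 0.31 did not pass (adjusted p = 0.0913). PARP9 and DTX3L overlap in RefSeq, and how reads in the shared stretch were assigned is not known. DTX3L was not called, at 84.4% of siNC with siEZH2-1 and 96.5% with siEZH2-2.

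STAT2, the partner of IRF9 in the interferon-activated complex, gave the reverse order of IFIH1. It was at 10.64 and 10.80 FPKM with siEZH2-1, 8.40 and 8.59 with siEZH2-2, and 10.87 and 10.13 in siNC, so only the siEZH2-2 libraries were low. The log2 change with siEZH2-2 was -0.28 (adjusted p = 0.0201), lost without siNC replicate 1 (0.127), siEZH2-2 replicate 1 (0.0919) or siEZH2-2 replicate 2 (0.0614). IFI6, a small membrane protein, was at 8.81 and 8.44 FPKM with siEZH2-2 and at 6.35 and 7.23 in siNC, a log2 change of 0.31 (adjusted p = 0.0289). That call was lost without siEZH2-2 replicate 1 (0.124), siEZH2-2 replicate 2 (0.0689), siNC replicate 1 (0.156), siEZH2-1 replicate 1 (0.0516) or siEZH2-1 replicate 2 (0.0517).

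In the direct comparison of the EZH2 siRNAs, 5 of the 26 genes were higher with siEZH2-2 than with siEZH2-1 (IFIH1, IFIT2, IFIT3, PARP9 and USP18), against 7.40% of all genes. STAT2 was lower, against 8.86% of all genes, so 6 of 26 differed, against 16.3%. Without siEZH2-1 replicate 2 or without siEZH2-2 replicate 2, none of these 6 was called, and without siEZH2-1 replicate 1 only 1 gene was.

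**Figure D4:**
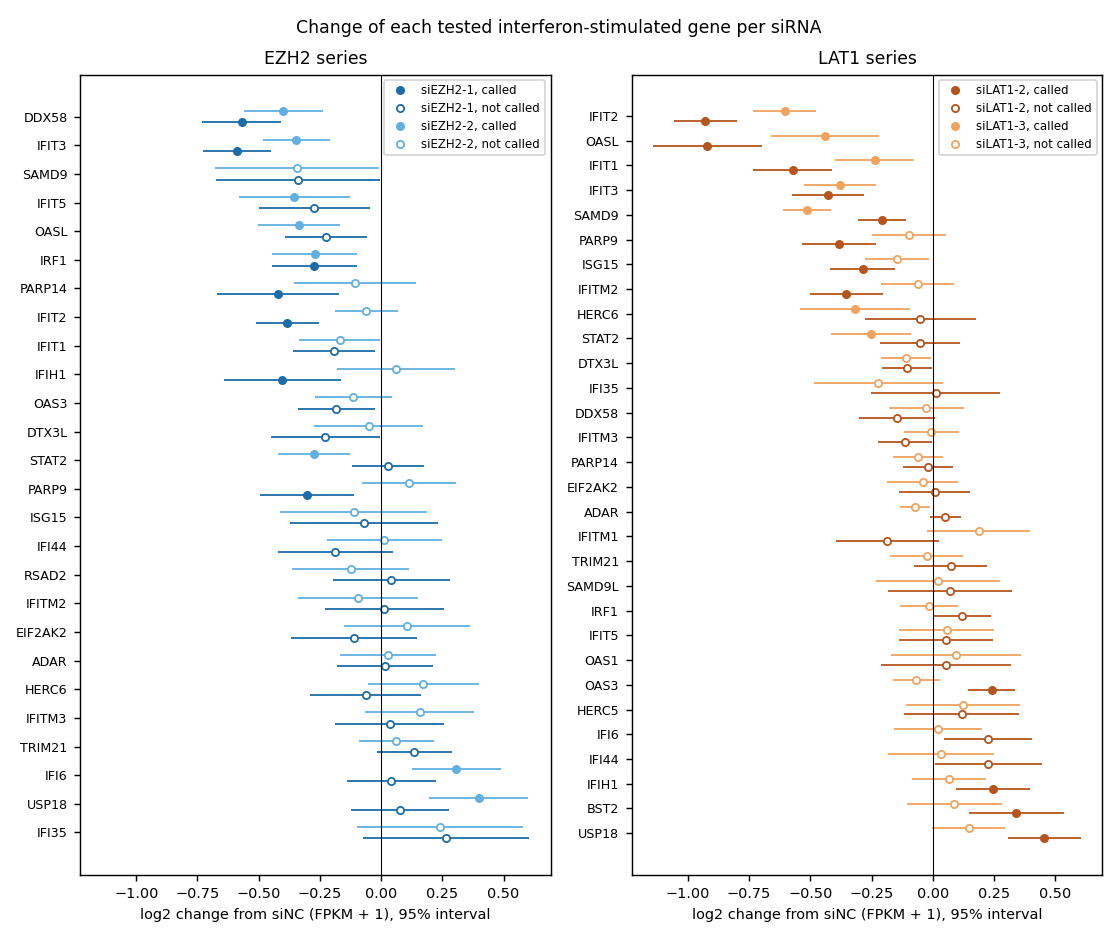
Log2 change from siNC of each tested interferon-stimulated gene with each siRNA, with 95% intervals from limma, for 26 genes of the EZH2 series (left) and 30 of the LAT1 series (right), ordered by the mean change. Filled points passed the adjusted p threshold; DDX58 and IFIT3 head the EZH2 panel at -0.48 and -0.47 on average and IFIT2 and OASL the LAT1 panel at -0.77 and -0.68.

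After LAT1 knockdown, 8 interferon-stimulated genes fell and 1 rose in the mean of both siRNAs. IFIT2, OASL, IFIT1, IFIT3, SAMD9, PARP9, ISG15 and IFITM2 fell and USP18 rose, out of 30 tested. In this comparison 34.5% of 11678 genes were called, 19.3% higher and 15.3% lower, against 3.33% and 26.7% of the 30 genes. The median log2 change was -0.03 over the 30 genes and 0.01 over all genes. With both siRNAs pooled as 1 group, IFIT2 and IFIT3 stayed called, and the adjusted p of the others ran from 0.0656 (OASL) to 0.305 (IFITM2). With no filter on low genes, 6 of the 9 calls were kept and 3 were lost.

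IFIT2 had the largest change of any tested gene of the 40 in the 2 mean comparisons. It was at 3.33 and 3.43 FPKM with siLAT1-2, 4.57 and 4.40 with siLAT1-3, and 7.45 and 7.23 in siNC. Each knockdown library was under 5 FPKM and each siNC library above 7 FPKM. The group means were 46.0% and 61.1% of siNC, and the mean log2 change was -0.77 (SE 0.0467, adjusted p = 7.06e-05). The siRNAs differed, with siLAT1-3 higher by 0.32 (adjusted p = 0.00592). All 4 comparisons of IFIT2 in the LAT1 series held without each library in turn.

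OASL was at 2.20 and 2.39 FPKM with siLAT1-2, 3.94 and 3.27 with siLAT1-3, and 5.55 and 4.93 in siNC. The same ordering as for IFIT2 is seen, with siLAT1-2 lowest. The mean log2 change was -0.68 (SE 0.0807, adjusted p = 0.00105), also called without each library. With siLAT1-3 the change of -0.44 (adjusted p = 0.0128) was lost without siLAT1-3 replicate 2 (0.059) or siNC replicate 1 (0.0864). The siRNAs differed by 0.48 (adjusted p = 0.011), lost without siLAT1-2 replicate 1 (0.056) or siLAT1-3 replicate 1 (0.0508).

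IFIT1 followed that order too, at 2.29 and 2.44 FPKM with siLAT1-2, 3.37 and 3.12 with siLAT1-3, and 4.02 and 3.98 in siNC. The mean log2 change was -0.40 (SE 0.0586, adjusted p = 0.00241) and held without each library. With siLAT1-3 the change of -0.24 (adjusted p = 0.0376) was lost without siLAT1-3 replicate 1 (0.0637), siLAT1-3 replicate 2 (0.151), siNC replicate 1 (0.148) or siNC replicate 2 (0.13). The siRNAs differed by 0.33 (adjusted p = 0.0127), lost without siLAT1-2 replicate 1 (0.0629) or siLAT1-3 replicate 1 (0.0651). IFIT3 did not follow it: 7.31 and 8.30 FPKM with siLAT1-2 overlapped 8.15 and 8.02 with siLAT1-3, all below 11.01 and 10.63 in siNC. Its mean log2 change was -0.40 (SE 0.0532, adjusted p = 0.00164), held without each library, and the siRNAs differed by 0.05 (95% interval -0.10 to 0.19, adjusted p = 0.615). IFIT5 was not called in the LAT1 series (4.61 to 5.43 FPKM, mean log2 change 0.06). LIPA was at 91.9% and 94.7% of siNC and was not called.

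SAMD9 differed from the IFIT genes in which siRNA lowered it more. It was at 19.85 and 19.45 FPKM with siLAT1-2, 16.21 and 15.14 with siLAT1-3, and 22.88 and 22.75 in siNC. Here siLAT1-3 was lowest, with no overlap between any of the 3 groups. The mean log2 change was -0.36 (SE 0.0357, adjusted p = 0.000497), and siLAT1-3 lay below siLAT1-2 by 0.31 (adjusted p = 0.00242). Both calls held without each library. The smaller change with siLAT1-2, -0.21 (adjusted p = 0.00969), was lost without siLAT1-2 replicate 2 (0.0509), siNC replicate 1 (0.0583) or siNC replicate 2 (0.0528). In the EZH2 series SAMD9 was at 28.58 to 35.23 FPKM in the knockdown libraries and at 44.84 and 36.62 in siNC, with a mean change of -0.34 that did not pass (adjusted p = 0.0755).

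ISG15, PARP9 and IFITM2 were called lower with siLAT1-2 and not with siLAT1-3. The difference between the siRNAs passed for PARP9 and IFITM2 and did not for ISG15 (0.14, adjusted p = 0.108). ISG15 was at 12.48 and 11.53 FPKM with siLAT1-2, 13.82 and 12.87 with siLAT1-3, and 15.20 and 14.51 in siNC. PARP9 was at 4.77 and 5.08, then 5.89 and 6.57, against 6.81 and 6.64. IFITM2, an endosomal entry inhibitor, was at 12.23 and 13.31, then 15.74 and 15.97, against 15.66 and 17.55. The knockdown libraries of ISG15 and PARP9 were below siNC without overlap, while IFITM2 with siLAT1-3 overlapped siNC.

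With siLAT1-2 the log2 changes were -0.29 for ISG15 (adjusted p = 0.00828), -0.38 for PARP9 (0.00459) and -0.35 for IFITM2 (0.00597). Those of PARP9 and IFITM2 held without each library, and that of ISG15 was lost without siNC replicate 1 (0.0592). The mean changes were -0.22, -0.24 and -0.21. The mean of ISG15 was lost without siNC replicate 1 (0.109) or 2 (0.0515), and that of PARP9 without siNC replicate 1 (0.107) or 2 (0.0772). The mean of IFITM2 was lost without siLAT1-2 replicate 1 (0.0558), siLAT1-3 replicate 1 (0.0608), siLAT1-3 replicate 2 (0.053) or siNC replicate 2 (0.174, with a change of -0.13).

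USP18 rose in the LAT1 series as well. It was at 9.82 and 9.61 FPKM with siLAT1-2, 7.27 and 8.06 with siLAT1-3, and 6.54 and 7.11 in siNC. All 4 knockdown libraries were above siNC, the siLAT1-2 pair clearly so. The log2 change was 0.45 with siLAT1-2 (adjusted p = 0.0021), held without each library, and 0.15 with siLAT1-3 (adjusted p = 0.123). The mean was 0.30 (SE 0.0542, adjusted p = 0.00603), lost without siNC replicate 1 (0.0587).

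BST2, IFIH1 and OAS3 rose with siLAT1-2 and were not called with siLAT1-3. The difference between the siRNAs passed for OAS3 and did not for BST2 (-0.25, adjusted p = 0.0647) or IFIH1 (-0.18, adjusted p = 0.0824). OAS3 was at 28.35 and 26.83 FPKM with siLAT1-2, 22.25 and 21.91 with siLAT1-3, and 22.68 and 23.68 in siNC. Its log2 change with siLAT1-2 was 0.24 (adjusted p = 0.00468), and this held without each library. BST2 was at 3.90 and 3.49 FPKM against 2.90 and 2.52 in siNC, a log2 change of 0.34 (adjusted p = 0.0193), lost without siLAT1-2 replicate 1 (0.0991) or siNC replicate 2 (0.106). IFIH1 was at 6.47 and 6.75 FPKM against 5.32 and 5.51, a log2 change of 0.25 (adjusted p = 0.0249), lost without siLAT1-2 replicate 1 (0.0621), siLAT1-2 replicate 2 (0.109), siNC replicate 1 (0.121) or siNC replicate 2 (0.0796). IFIH1 had thus fallen with siEZH2-1 and rose with siLAT1-2.

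STAT2 and HERC6 fell with siLAT1-3 and were not called with siLAT1-2, and the siRNAs did not differ past the threshold (adjusted p = 0.0756 and 0.0853). STAT2 was at 5.44 and 5.79 FPKM with siLAT1-3 against 7.05 and 6.72 in siNC, a log2 change of -0.25 (adjusted p = 0.0315). HERC6, a HECT-type ubiquitin ligase, was at 3.18 and 2.70 FPKM against 4.22 and 3.60, a log2 change of -0.32 (adjusted p = 0.0437). In both genes the siLAT1-3 libraries were below both siNC libraries. The STAT2 call was lost without siLAT1-3 replicate 1 (0.133), siLAT1-3 replicate 2 (0.0637), siNC replicate 1 (0.152) or siNC replicate 2 (0.0866). The HERC6 call was lost without siLAT1-3 replicate 2 (0.183), siNC replicate 1 (0.216), siNC replicate 2 (0.0549), siLAT1-2 replicate 1 (0.0575) or siLAT1-2 replicate 2 (0.0566).

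In either direction 32.5% of all genes were called with siLAT1-2 and 31.4% with siLAT1-3. Counted over the 30 genes, 8 were called lower with siLAT1-2 (13.9% of all genes) and 7 with siLAT1-3 (13.6% of all genes). The calls higher numbered 4 with siLAT1-2 (18.6% of all genes) and 0 with siLAT1-3 by limma (17.9% of all genes), where 10 of the 30 differed in either direction at an unadjusted p under 0.05, against 42.4% of all genes. Both siRNAs called IFIT1, IFIT2, IFIT3, OASL and SAMD9 lower, against 5.31% of all genes, and none of the 30 higher, against 11.2%. All 4 knockdown libraries lay below siNC for 8 genes (16.9% of all genes) and above for 3, IFI44, BST2 and USP18 (24.4% of all genes). Between the siRNAs, where 25.5% of all genes differed, 6 genes were higher with siLAT1-3 (IFIT1, IFIT2, IFITM1, IFITM2, OASL and PARP9; 12.4% of all genes) and 4 lower (ADAR, OAS3, SAMD9 and USP18; 13.1% of all genes). The difference between siRNAs was lost for PARP9 (0.29) without siLAT1-2 replicate 1 (0.0875) or siLAT1-3 replicate 2 (0.0873), and for USP18 (-0.31) without siLAT1-2 replicate 1 (0.0637) or siLAT1-3 replicate 1 (0.0605). For IFITM2 (0.29) it was lost without siLAT1-2 replicate 1 (0.0782), siLAT1-3 replicate 1 (0.0591) or siLAT1-3 replicate 2 (0.0746). Most of the 10 calls between the siRNAs were lost without siLAT1-2 replicate 1 or without siLAT1-3 replicate 1. Without siLAT1-2 replicate 1, other genes were newly called.

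RSAD2, which encodes viperin, was under the threshold in the LAT1 series and was not tested there. It was at 0.28 and 0.27 FPKM with siLAT1-2, 0.46 and 0.47 with siLAT1-3, and 0.57 and 0.66 in siNC. These low levels had the order seen for IFIT2, OASL and IFIT1. RSAD2 overlaps CMPK2 in RefSeq, and CMPK2 was at 0.145 to 0.15 FPKM in the 3 groups.

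IFIT2, IFIT3 and OASL were lower in both mean comparisons, which is 3 of the 6 genes lower in the EZH2 series and 3 of the 8 (37.5%) in the LAT1 series. Of 10804 genes tested in both series, 5.83% were lower in both. USP18 was higher in both, against 9.91% of all genes. IFIT3 was called lower with each of the 4 siRNAs, at 64.5%, 77.4%, 72.1% and 74.7% of its own siNC with siEZH2-1, siEZH2-2, siLAT1-2 and siLAT1-3. It was the only 1 of the 25 genes tested in both, against 1.34% of all genes. DDX58, IRF1 and IFIT5 were called in the EZH2 series, and IFIT1, SAMD9, PARP9, ISG15 and IFITM2 in the LAT1 series. Whether a change differed between the series was not tested, since the tables were made separately.

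**Figure D5:**
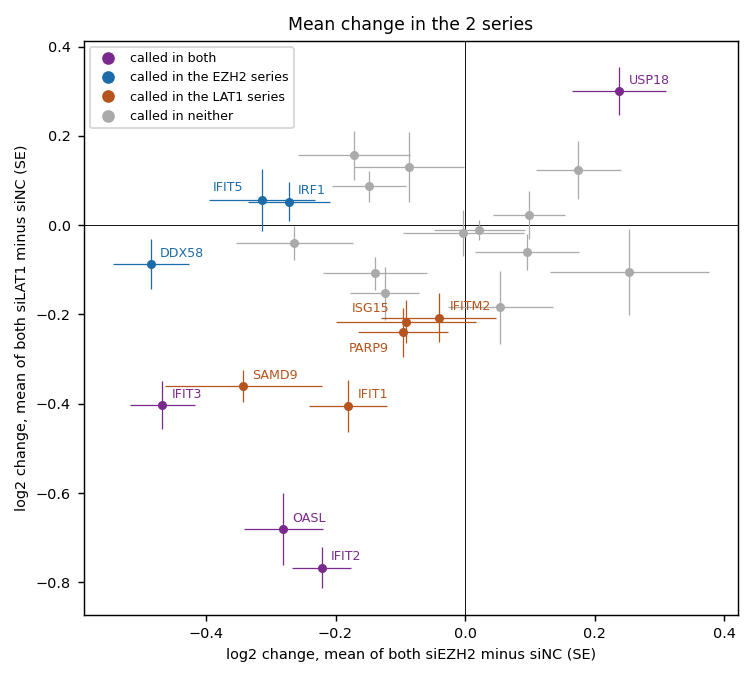
Mean log2 change of the 25 interferon-stimulated genes tested in both series, EZH2 knockdown on x and LAT1 knockdown on y, with SE bars from limma. IFIT3, OASL and IFIT2 lie in the lower left and USP18 in the upper right, called in both series, while DDX58 lies at -0.48 on x and -0.09 on y.

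Of the 31 genes tested in either series, 10 were called in no comparison: OAS1, IFI35, IFI44, IFITM3, SAMD9L, DTX3L, HERC5, TRIM21, RSAD2 and EIF2AK2. OAS1, SAMD9L and HERC5 were tested only in the LAT1 series and RSAD2 only in the EZH2 series. These genes thus had 4 comparisons each and the others 8. The share of all genes never called was not computed, so the count is a description only. The 10 include EIF2AK2, the kinase PKR that halts translation on double-stranded RNA. It was at 17.09 to 22.94 FPKM in the EZH2 libraries and 22.63 to 25.62 FPKM in the LAT1 libraries. TRIM21, a cytosolic antibody receptor, was at 12.06 to 13.80 and 5.79 to 6.79 FPKM. IFITM3, the most abundant gene of the list, was at 185.65 to 230.72 and 151.80 to 175.06 FPKM, and its mean log2 changes were 0.10 (95% interval -0.10 to 0.29) and -0.06 (95% interval -0.16 to 0.04). Where these genes were tested, the knockdown libraries overlapped siNC, apart from IFI44 and DTX3L in the LAT1 series. An adjusted p over the threshold does not show that a level stayed the same.

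Other genes of the interferon pathway are set here against the share of all genes called in the same mean comparison: with EZH2 knockdown 17.0% were higher and 13.0% lower, and with LAT1 knockdown 19.3% and 15.3%. None of 22 interferon genes reached 1 FPKM, the highest mean being 0.183 FPKM for EZH2 and 0.095 FPKM for LAT1. Of the receptor and JAK-STAT genes, 1 of 10 tested rose and 1 fell in the EZH2 series (17.0% and 13.0% of all genes), and 2 of 11 rose and 0 fell by limma in the LAT1 series (19.3% and 15.3% of all genes). Their median log2 changes were 0.03 and 0.02. STAT3, which carries signals of the interleukin 6 family, was at 20.62 to 22.72 FPKM with the EZH2 siRNAs against 15.93 and 15.90 in siNC, and at 34.97 to 36.27 FPKM with the LAT1 siRNAs against 27.51 and 27.92. Its log2 changes were 0.42 (adjusted p = 0.00174) and 0.36 (adjusted p = 0.000152).

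Among nucleic acid sensing genes, 2 of 17 tested rose and 2 fell in the EZH2 series (17.0% and 13.0% of all genes, median -0.02). With LAT1 knockdown 3 of 17 rose and 3 fell (19.3% and 15.3% of all genes, median -0.07). TRAF3, an adaptor between RNA sensors and interferon induction, was at 4.45 and 4.82 FPKM with siEZH2-1, 6.95 and 7.47 with siEZH2-2, and 3.26 and 3.17 in siNC. It was at 8.85 to 9.93 FPKM with the LAT1 siRNAs against 4.18 and 4.53. Its mean log2 changes were 0.69 (adjusted p = 0.000819) and 0.96 (adjusted p = 3.4e-05). IFI16, a DNA sensor, rose by 0.36 (adjusted p = 0.00483) and 0.22 (adjusted p = 0.00134). In the EZH2 series it was called with siEZH2-2 (0.58, adjusted p = 0.00156) and not with siEZH2-1 (0.14, adjusted p = 0.153). Neither TRAF3 nor IFI16 was called in the EZH2 series with both siRNAs pooled (0.0684 and 0.192). DDX58, a sensor of the same pathway, fell in that series. TRIM25, also on the sensing list, was called lower in both mean comparisons. Its log2 changes were -0.18 for EZH2 (adjusted p = 0.0424) and -0.23 for LAT1 (adjusted p = 0.00149). Neither call held with both siRNAs pooled (0.131 and 0.264).

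Of 18 negative regulators of interferon signalling tested, 7 fell and 1 rose in the EZH2 series (13.0% and 17.0% of all genes, median -0.12). With LAT1 knockdown 4 fell and 2 rose (15.3% and 19.3% of all genes, median -0.04). Whether the series differed in this was not tested. SOCS3, which inhibits JAK kinases, was at 5.79, 5.99, 6.95 and 5.97 FPKM with the EZH2 siRNAs against 9.26 and 9.03 in siNC, a mean log2 change of -0.50 (adjusted p = 0.00338). PTPN1, a tyrosine phosphatase that acts on JAK kinases, was at 25.59 and 25.09 FPKM with siEZH2-2 against 58.74 and 59.68 in siNC, and at 58.88 and 55.52 with siEZH2-1, so its mean change of -0.62 (adjusted p = 0.000395) was carried by siEZH2-2, and it was not called with both siRNAs pooled (0.327). IRF2BP2, a corepressor of IRF2, fell by 0.43 on the log2 scale in the EZH2 series (adjusted p = 0.00151). In the LAT1 series both SOCS3 and PTPN1 were called lower with siLAT1-2, by -0.22 (adjusted p = 0.0303) and -0.24 (adjusted p = 0.0145). With siLAT1-3 the changes were 0.15 (adjusted p = 0.106) and 0.07 (adjusted p = 0.342). The siLAT1 siRNAs differed for both genes (adjusted p = 0.0054 and 0.00645). The mean change in the LAT1 series was -0.04 for SOCS3 (adjusted p = 0.63) and -0.08 for PTPN1 (adjusted p = 0.209). IRF2BP2 was called lower there, by -0.14 (adjusted p = 0.0177), a call lost without siNC replicate 1 (0.112) or 2 (0.082) and with both siRNAs pooled (0.151).

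Among 54 other interferon-responsive genes, 7 of 38 tested rose and 10 fell in the EZH2 series (17.0% and 13.0% of all genes, median -0.02). With LAT1 knockdown 8 of 43 rose and 6 fell (19.3% and 15.3% of all genes, median -0.02). PARP12, an antiviral ADP-ribosyltransferase, fell by 0.36 (adjusted p = 0.00618) and by 0.57 (adjusted p = 0.000728) on the log2 scale. LAP3, an aminopeptidase induced by interferon gamma, rose by 0.38 (adjusted p = 0.0028) and 0.41 (adjusted p = 0.000431).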

How the data were processed

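The authors deposited 1 table of values per series, to 2 decimals, with 1 column per library. Neither headers nor labels name the unit. It was taken as FPKM from the values: deposited FPKM columns summed to 245634 to 275399, and low values rose in steps of 1 read (84.3% to 89.6% whole within 0.12 reads at the depth chosen). Tools named, per the submitters' processing notes, are STAR, Bowtie, Bowtie2, Picard, SEACR and Trim Galore, and builds hg38 and hg19, without roles. Counting, the gene lengths behind the deposited values and the strand setting are not given in the sources used here.

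Since the tables held no counts, the test planned for other units was used. For each table alone, log2(FPKM + 1) of the genes whose mean was 1 FPKM or more entered limma-trend (limma 3.58.1, R 4.3.3), with 1 coefficient per group. The siRNAs were compared with siNC together and singly, and with each other. Calls used a Benjamini-Hochberg adjusted p under 0.05 over all genes, two-sided. With 4 libraries against 2, an exact permutation p has a floor of 0.0667, so calls rest on the spread pooled across genes. The procedure was tested on simulated data in which the noise of each library was drawn independently. Variation shared between libraries, as seen in the EZH2 series (below), was not simulated, so its effect on the calls is not covered. Alternatives were leaving out each library, pooling both siRNAs as 1 group, a replicate block, quantile normalization, a filter at 5 FPKM or none, and a pseudocount of 0.1. Every one of the 40 genes with a call is named. From 5 other pathway lists, up to 4 genes each were eligible, those called in both mean comparisons first and then those with the lowest adjusted p. Not every eligible gene is reported here. The 40 genes and the lists were chosen with earlier results of these data known. In the LAT1 series the titles number both siNC libraries alike, and the descriptions were followed. The 2 CUT&Tag samples were not analysed here. Tables and plots were made with Python 3.11.15, pandas 2.3.3 and matplotlib 3.10.9.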

Additional observations from a re-analysis of the deposited data

Results flagged for a closer look

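A rule with 2 parts flagged 6 of the 31 genes tested in at least 1 series. The changes from siNC with the siRNAs against the same target had opposite signs. The difference between them also passed limma's adjusted p threshold. That second part alone was met by 16.3% of all genes for the siEZH2 pair and by 25.5% for the siLAT1 pair. How many of all genes meet both parts was not computed, so the 6 are a description only. In none of the 6 did both siRNAs pass against siNC. The change on the side that did not pass was 0.06 for IFIH1 and 0.11 for PARP9 with siEZH2-2, 0.03 for STAT2 with siEZH2-1 and -0.07 for OAS3 with siLAT1-3. In the EZH2 series, siEZH2-2 minus siEZH2-1 was 0.46 on the log2 scale for IFIH1 (adjusted p = 0.0262), 0.42 for PARP9 (adjusted p = 0.0179) and -0.30 for STAT2 (adjusted p = 0.0215). The IFIH1 difference was lost without siEZH2-1 replicate 1 (0.0519), siEZH2-1 replicate 2 (0.142) or siEZH2-2 replicate 2 (0.117). That of PARP9 was lost without siEZH2-1 replicate 2 (0.112) or siEZH2-2 replicate 2 (0.0921). That of STAT2 was lost without siEZH2-1 replicate 1 (0.0914), siEZH2-1 replicate 2 (0.126), siEZH2-2 replicate 1 (0.0812) or siEZH2-2 replicate 2 (0.0809).

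In the LAT1 series, siLAT1-3 minus siLAT1-2 was -0.31 for OAS3 (adjusted p = 0.0022), 0.37 for IFITM1 (adjusted p = 0.0224) and -0.13 for ADAR (adjusted p = 0.0135). The OAS3 difference held without each library. IFITM1 was at 16.43 and 17.24 FPKM with siLAT1-2, 23.21 and 21.01 with siLAT1-3, and 21.18 and 17.53 in siNC. Its difference was lost without siLAT1-2 replicate 1 (0.0993), siLAT1-2 replicate 2 (0.0622) or siLAT1-3 replicate 1 (0.11). ADAR was at 88.29 and 87.03, then 79.68 and 80.83, against 84.23 and 84.81 FPKM, and its difference was lost without siLAT1-2 replicate 1 (0.0667) or siLAT1-3 replicate 1 (0.0622). Neither siRNA alone moved IFITM1 or ADAR past the threshold against siNC.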

How the results depend on the processing

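Over the 8 comparisons, 66 changes of the 40 genes were called, none reversed under any alternative run, and 26 were called without each library in turn. Quantile normalization lost 4 of the 66 calls, a pseudocount of 0.1 lost 1 and no filter 32. A filter at 5 FPKM lost 0 of the 52 it could test. Over all genes, calls with no filter also fell, from 3481 to 1820 for the mean of siEZH2 and from 4032 to 2739 for the mean of siLAT1. Pooling both siRNAs left 1153 and 1309 of all genes called. Among the 40 genes, pooling lost 12 of 16 calls. There, 2 genes stayed called in the EZH2 series (DDX58 and IFIT3, from 7) and 2 in the LAT1 series (IFIT2 and IFIT3, from 9). Without a filter, the called genes numbered 3 for the mean of siEZH2 (from 7), 3 for siEZH2-1 (from 7), 3 for siEZH2-2 (from 8), 1 for the difference between siEZH2 siRNAs (from 6), 3 for siLAT1-3 (from 7) and 5 for the difference between siLAT1 siRNAs (from 10). Still without a filter, 6 were called for the mean of siLAT1 (from 9) and 10 for siLAT1-2 (from 12). A filter at 5 FPKM left 4 for siLAT1-3. With a library left out, counts ran from 3 to 9 for the mean of siEZH2, 3 to 7 for siEZH2-1, 2 to 7 for siEZH2-2 and 0 to 5 for their difference, and from 6 to 10, 9 to 12, 3 to 6 and 4 to 10 for the same comparisons of siLAT1. These counts include genes that only the reduced run called, so they are not counts of calls kept. With 1 library left in a group, that library is assumed to vary like the others.

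With replicate number as a block, 16 of the 66 calls were lost, leaving 3 genes for siEZH2-1, 4 for siEZH2-2 and 1 for their difference. Over all genes, the block took the calls from 3481 to 2388 for the mean of siEZH2 and from 4032 to 3768 for the mean of siLAT1. The labels give same-numbered libraries nothing in common but the number. In the EZH2 series their deviations from the group means correlated across genes at -0.353 (siEZH2-1 with siEZH2-2), 0.355 (siEZH2-1 with siNC) and -0.339 (siEZH2-2 with siNC). In the LAT1 series the correlations were 0.0177 to 0.0826. Libraries of the EZH2 series thus shared some variation across groups, in a pattern that the replicate numbers do not follow. The main fit leaves it out, and its source was not tested. Depth limits genes under 1 FPKM, where values are deposited to 2 decimals and a few reads set them.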
